A study of Mus musculus with 4 samples.

Results

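The 10 genes described here are survival and death genes of the Bcl2 family: the survival genes Bcl2, Bcl2l1 (Bcl-xL), Mcl1 and the A1 copies Bcl2a1a, Bcl2a1b and Bcl2a1d, the BH3-only killers Bcl2l11 (Bim) and Pmaip1 (Noxa), and the effectors Bax and Bak1. They were taken by symbol from the 31053 genes of a droplet single-cell count matrix, and all 10 were present. On GRCm38 Bcl2 lies at chr1:106538178-106714274, Bcl2l1 at chr2:152780668-152831728, Bcl2l11 at chr2:128126038-128162547, Mcl1 at chr3:95658788-95663176, Bax at chr7:45461697-45466898 and Bak1 at chr17:27019810-27029009. The cells came from the trabecular bone of proximal and distal tibiae of mice aged 8 weeks, released with dispase, collagenase and trypsin. All carried Col10a1Cre;Rosa26-Tdtomato;Irx3 +/Δ;Irx5 +/- and received no PTH. This genotype is the heterozygous control of its study; Col10a1-Cre acts in hypertrophic chondrocytes and their descendants. The 4 records share 1 matrix with no map from cells to records, so there was no second group and no replicate error: every interval below is a 95% exact interval for counting error only, and no p-value was computed.

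Members of this family meet at the mitochondrial outer membrane. Bax and Bak1 proteins open that membrane and release cytochrome c; Bcl2, Bcl-xL, Mcl1 and A1 proteins hold them and the BH3-only proteins in check; and Bim and Noxa bind the survival proteins, Noxa mainly Mcl1 and A1. In mice Mcl1 is known to be needed by neutrophils and blood stem cells, Bcl-xL by late erythroblasts and double-positive thymocytes, and Bcl2 by mature lymphocytes, while loss of Bim leads to an excess of lymphocytes and myeloid cells. Much of this control acts on protein turnover, which transcript counts do not show.

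The A1 copies sit near each other on chromosome 9 and are close to identical, which limits how well their counts can be told apart. Their RefSeq promoter windows (build GRCm38.p6, 250 bases before to 50 after the annotated start) are shown for how alike the copies are. Lying mostly before the start, these windows do not bear on how reads were assigned. The transcript values given after them do. The windows lie at chr9:88956670-88956969 (Bcl2a1a, plus strand), chr9:89199023-89199322 (Bcl2a1b, plus strand) and chr9:88731801-88732100 (Bcl2a1d, minus strand), and are written 5′ to 3′. Capitals mark the bases at which Bcl2a1a and Bcl2a1b differ from each other, and those at which Bcl2a1d differs from Bcl2a1b.
Bcl2a1a: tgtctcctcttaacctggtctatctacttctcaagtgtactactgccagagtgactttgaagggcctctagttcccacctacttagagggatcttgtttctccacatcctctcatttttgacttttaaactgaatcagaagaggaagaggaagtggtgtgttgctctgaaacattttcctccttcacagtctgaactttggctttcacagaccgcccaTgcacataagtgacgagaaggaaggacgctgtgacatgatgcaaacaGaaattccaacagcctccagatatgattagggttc
Bcl2a1b: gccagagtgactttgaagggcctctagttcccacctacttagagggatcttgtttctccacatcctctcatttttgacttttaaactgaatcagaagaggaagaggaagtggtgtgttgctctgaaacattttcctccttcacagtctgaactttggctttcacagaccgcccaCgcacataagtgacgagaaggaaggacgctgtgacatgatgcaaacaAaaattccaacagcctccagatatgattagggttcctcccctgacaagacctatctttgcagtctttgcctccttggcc
Bcl2a1d: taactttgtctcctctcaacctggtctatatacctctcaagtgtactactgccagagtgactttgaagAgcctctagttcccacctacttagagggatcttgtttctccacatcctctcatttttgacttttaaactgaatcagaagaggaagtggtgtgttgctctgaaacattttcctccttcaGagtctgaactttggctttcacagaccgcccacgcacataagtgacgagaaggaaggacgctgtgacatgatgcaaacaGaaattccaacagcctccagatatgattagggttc
Over the stretch where they align, 254 of 256 bases were the same in Bcl2a1a and Bcl2a1b (99.2%) and 247 of 250 in Bcl2a1d and Bcl2a1b (98.8%, with 6 further bases in gaps). Their transcripts were 98.2% to 99.1% identical. Of the 90-base windows in the last 400 bases of each transcript, 27.0% of those of Bcl2a1a, 34.1% of Bcl2a1b and 60.8% of Bcl2a1d also occur in another copy. The split among the copies is therefore uncertain, and the sum of the 3 copies is given beside them.

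The GATA letters AGATAA were found in 1 of the 3 RefSeq windows of Bcl2l1 and in none of the 9 windows of 8 other members; the search covered both strands and left out Pmaip1. AGATAA occurs in 11.2% of the 32851 RefSeq promoter windows. Bcl2l1 had more windows searched than any other member. The window with the match, shown because the erythroid and B lineage results below turn on Bcl2l1, lies at chr2:152828440-152828739 on the minus strand, and the capitals mark the match, 41 bases upstream of that start.
Bcl2l1: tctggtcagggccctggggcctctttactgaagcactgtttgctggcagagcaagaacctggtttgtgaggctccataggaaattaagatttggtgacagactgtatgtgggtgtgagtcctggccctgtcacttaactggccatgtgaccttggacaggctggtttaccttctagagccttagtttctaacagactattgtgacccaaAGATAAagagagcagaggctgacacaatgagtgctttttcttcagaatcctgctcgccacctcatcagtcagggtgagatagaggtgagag
The STAT letters TTCNNNGAA, found in 8.30% of all windows, occurred in none of these members' windows. A match of letters is a description, not a binding site, and other windows of these genes were not searched.

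The matrix held 15014 barcodes, of which 10485 were kept (at least 500 unique molecular identifiers, UMIs, and 200 genes, at most 10% mitochondrial UMIs, no predicted doublet), with a median of 4855 UMIs. Clusters made without the 10 members were named from marker lists. The classes were B lineage (3426 cells), neutrophil (2830), erythroid (1909), monocyte (633), granulocyte-monocyte progenitor (390), T or NK (304), macrophage (220), osteoblast (164), stem or multipotent progenitor (131), plasmacytoid dendritic (91), basophil or mast (70), plasma cell (49) and osteoclast (35), each "-like" in full; 233 cells stayed unnamed. Most cells of this bone preparation were thus blood cells, and the osteoblast class also held marrow stromal markers. Members had between 205 UMIs (Bcl2a1a) and 27676 UMIs (Mcl1) in the kept cells. Levels are counts per 1000000 UMIs outside 8 globin genes (CPM), summed over the cells of a class, since globin fills late erythroid cells. CPM is a share of captured RNA, so a class with less RNA per cell can show a higher CPM at an equal number of molecules per cell; orders are given within a gene, never between genes.

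**Figure D1:**
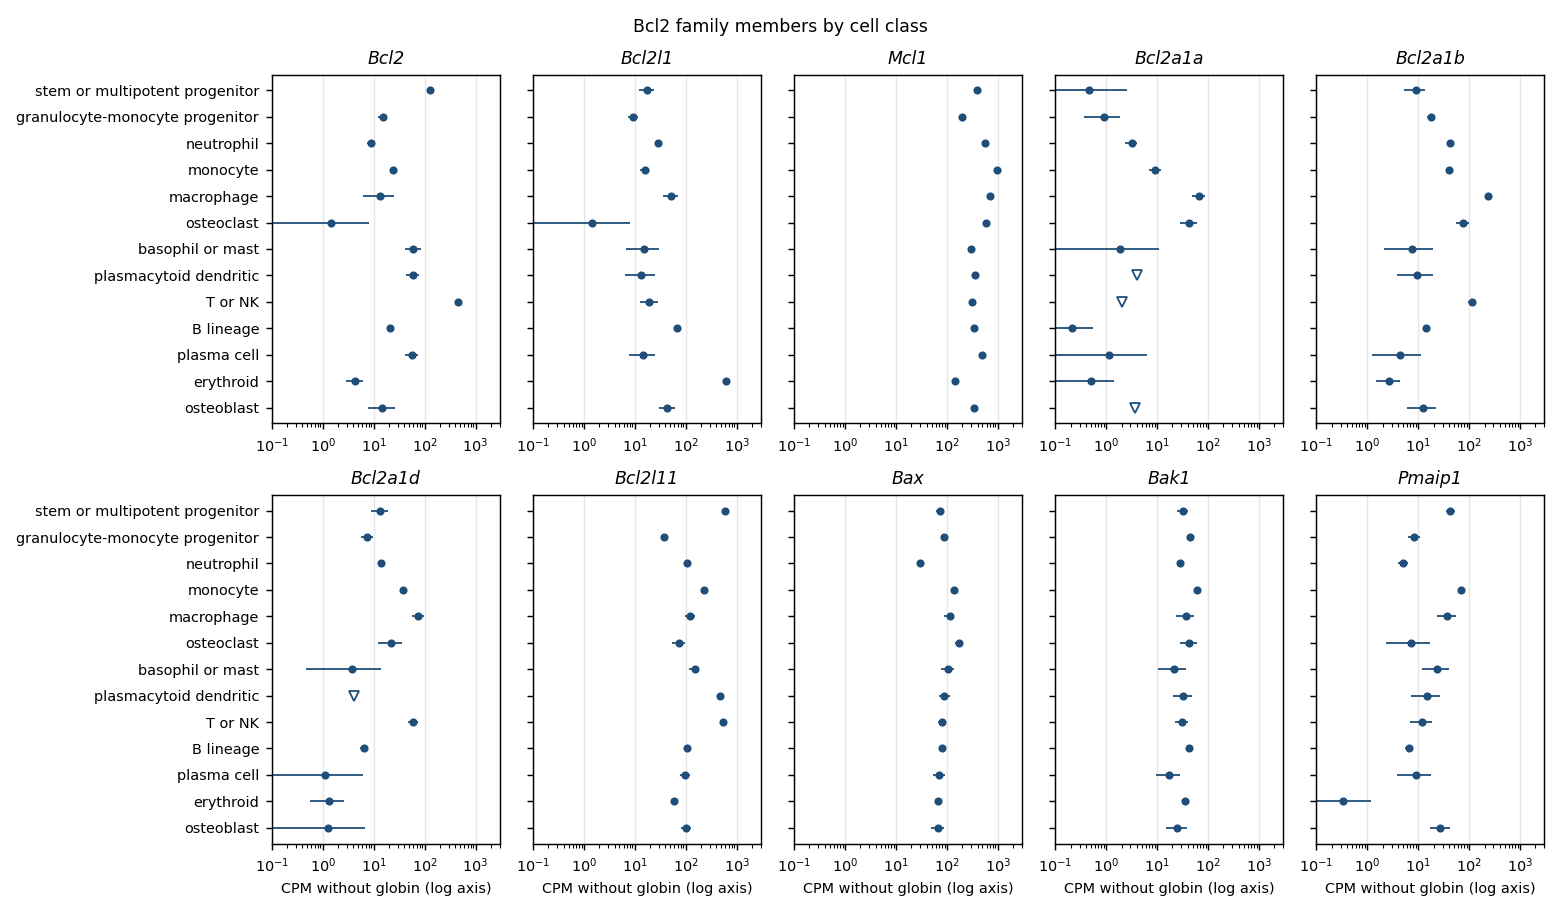
Level of each member (CPM without globin, log axis, 1 panel per gene) in the 13 named classes; points are UMIs summed over a class, bars are exact Poisson 95% intervals cut at the left axis limit, and open triangles mark classes with no UMI, drawn at the level that 3 UMIs would give. Bcl2 peaks in T or NK cells (447 CPM) and Bcl2l1 in erythroid cells (605 CPM). Over these classes Bax runs from 29.8 to 174 CPM and Bak1 from 16.8 to 60.7 CPM.

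The survival genes peaked in different classes: Bcl2 in T or NK, Bcl2l1 in erythroid, Mcl1 in monocyte and the A1 sum in macrophage cells. Bcl2 was highest in T or NK-like cells at 447 CPM (414 to 483; 645 UMIs), 3.55-fold (3.08 to 4.11) above the next class, stem or multipotent progenitors at 126 CPM (111 to 142). Basophil or mast (59.3 CPM), plasmacytoid dendritic (58.9 CPM) and plasma cells (55.9 CPM) followed, and the first 2 of these did not differ beyond counting error. Monocytes had 24.5 CPM and B lineage cells 20.8 CPM, which again did not differ beyond counting error (ratio 1.18, 0.971 to 1.43). Neutrophils had 8.81 CPM (7.46 to 10.3) and erythroid cells 4.31 CPM (2.81 to 6.31). The contrast was also seen per cell: 68.1% of T or NK-like cells (62.5 to 73.3; median depth 4056 UMIs) had a Bcl2 UMI, against 1.20% of erythroid-like cells (0.765 to 1.80; median depth 6235 UMIs). With every cell thinned to 1000 UMIs these shares were 35.3% (4 T or NK cells too shallow to enter) and 0.112% (122 erythroid cells too shallow). Depth and thinning, here and below, count all UMIs with globin included. Globin made up a median of 67.9% of the UMIs of erythroid cells and 0.182% of those of T or NK cells. Shares in erythroid cells therefore rest on fewer UMIs outside globin and are not matched in that depth.

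Bcl2l1 had the opposite pattern. Erythroid-like cells had 605 CPM (585 to 625; 3651 UMIs), 9.17-fold (8.59 to 9.80) above B lineage cells at 65.9 CPM (62.2 to 69.7). Macrophages (51.4 CPM) did not differ beyond counting error from B lineage cells or from osteoblasts (43.4 CPM), and neutrophils stood at 28.8 CPM. T or NK cells, stem or multipotent progenitors, monocytes, basophils or mast cells and plasmacytoid dendritic cells lay between 13.4 and 19.4 CPM, with every neighbouring pair within counting error, and granulocyte-monocyte progenitors had the lowest level of the classes of at least 50 cells, 9.32 CPM (7.29 to 11.7), though not apart beyond counting error from plasmacytoid dendritic cells (plasmacytoid dendritic over progenitor 1.44, 0.661 to 2.80). Some of these low values are near what erythroid RNA in the same barcodes would bring. The Hbb-bs UMIs of monocytes, at the erythroid ratio of Bcl2l1 to Hbb-bs, would come with 84.8 Bcl2l1 UMIs, where 95 were counted. Those of T or NK cells would come with 13.8, where 28 were counted. The median cell had only 4.00 Hbb-bs UMIs in monocytes and 3.00 in T or NK cells, so most of each sum came from cells with many more. The reckoning uses class sums and does not tell evenly spread free RNA from globin-rich barcodes, which was not tested. It gives 19.9 of 35 UMIs in macrophages, 19.0 of 35 in osteoblasts and 38.3 of 72 in granulocyte-monocyte progenitors. In stem or multipotent progenitors the same reckoning gives 3.02 of 37 UMIs, in B lineage cells 37.8 of 1207 UMIs, and in neutrophils 32.1 of 493. In osteoclast-like cells Bcl2l1 and Bcl2 had 1 UMI each among 689661.

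Mcl1, whose protein is short-lived, was found in every class and led in the mononuclear phagocytes. Monocytes had 952 CPM (927 to 977), macrophages 693 CPM (632 to 758) and neutrophils 564 CPM (553 to 575), each above the next beyond counting error. The 35 osteoclasts had 587 CPM (531 to 647). From stem or multipotent progenitors (394 CPM) down through plasmacytoid dendritic cells, osteoblasts, B lineage cells and T or NK cells to basophils or mast cells (304 CPM), no neighbours differed beyond counting error. Granulocyte-monocyte progenitors had 202 CPM (193 to 213) and erythroid cells 145 CPM (135 to 155), the lowest. A UMI of Mcl1 was found in 97.6% of monocytes (96.1 to 98.7; median depth 7865 UMIs) and in 24.5% of erythroid cells (22.5 to 26.5; median depth 6235 UMIs, mostly globin). After thinning to 1000 UMIs, globin included, the shares were 58.6% and 5.76%. The summed level of genes that respond to tissue dissociation was highest in monocytes (6168 CPM) and macrophages (6121 CPM) among the named classes. It was 2909 CPM in erythroid cells and 1528 CPM in granulocyte-monocyte progenitors. Elsewhere this order differed from that of Mcl1. Neutrophils had 2639 CPM and osteoclasts 2118 CPM, below stem or multipotent progenitors (5259 CPM). The part of dissociation in the class values of Mcl1, A1 and Pmaip1 was not tested.

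The A1 genes are known as NF-kB targets in leukocytes. Their sum was highest in macrophages, at 377 CPM (333 to 426), ahead of T or NK cells at 172 CPM (151 to 195), the 35 osteoclasts at 139 CPM (113 to 170.0), monocytes at 86.1 CPM (78.9 to 93.8) and neutrophils at 59.3 CPM (55.7 to 63.1). Erythroid cells had 4.47 CPM (2.95 to 6.51). In osteoclasts 1 cell held 17 of 29 Bcl2a1a UMIs and 1 cell 18 of 52 Bcl2a1b UMIs, so their level rests partly on few barcodes. For Bcl2a1d alone macrophages (74.9 CPM) did not differ beyond counting error from T or NK cells (59.0 CPM; ratio 1.27, 0.879 to 1.82), and its highest class was T or NK with a stricter minimum of UMIs per cell or as a mean of per-cell CPM, and dendritic with at most 5% mitochondrial UMIs. The copies were not used in a fixed proportion. Bcl2a1a had no UMI in T or NK-like cells, where Bcl2a1b had 163 and Bcl2a1d 85, while macrophages had 45, 161 and 51 UMIs of Bcl2a1a, Bcl2a1b and Bcl2a1d. The count of 0 in T or NK cells, read as at most 3 UMIs, allows up to 2.08 CPM of Bcl2a1a, against 66.1 CPM (48.2 to 88.4) in macrophages. B lineage cells likewise had 4 Bcl2a1a UMIs beside 266 of Bcl2a1b. Macrophages were shallow, with a median of 1066 UMIs, and 101 of 220 had fewer than 1000.

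Among the BH3-only genes, Bcl2l11 was highest in stem or multipotent progenitors (586 CPM, 554 to 619) and T or NK cells (539 CPM, 502 to 578), which did not differ beyond counting error (ratio 1.09, 0.994 to 1.19). Plasmacytoid dendritic cells had 470.2 CPM (422 to 522) and monocytes 230.5 CPM (219 to 243). Basophils or mast cells, macrophages, neutrophils, B lineage cells and osteoblasts lay between 102 and 149 CPM, with no neighbours apart beyond counting error. Erythroid cells had 59.1 CPM, and granulocyte-monocyte progenitors were lowest at 36.6 CPM (32.5 to 41.2). T or NK cells and stem or multipotent progenitors thus headed the order both for Bcl2 and for Bcl2l11, whose proteins bind each other. Among the named classes Pmaip1 was highest in monocytes at 68.1 CPM (414 UMIs). Stem or multipotent progenitors had 42.7 CPM (34.4 to 52.4), macrophages 36.7 CPM (23.7 to 54.2) and osteoblasts 27.3 CPM (17.1 to 41.3). In osteoblasts 1 cell held 13 of the 22 UMIs, so that level rests largely on 1 barcode. An unnamed cluster of 79 cells had more, 304 CPM (174 to 493) on 16 UMIs. The monocyte class had 8 monocyte and also 4 dendritic markers raised. With at most 5% mitochondrial UMIs, Pmaip1 was highest instead in a dendritic-like cluster of 63 cells led by H2-Eb1 and Cd74, and at Leiden resolution 2.0 a group of 243 cells with both among its leading genes split off and stayed unnamed; their part in the monocyte value was not tested. In erythroid cells Pmaip1 had 2 UMIs in 1909 cells (0.331 CPM, 0.0401 to 1.20).

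The effectors varied least between whole classes, by the ratio of highest to lowest. Bax ranged over the 11 classes of at least 50 cells from 29.8 CPM (27.3 to 32.5) in neutrophils to 136 CPM (127 to 146) in monocytes, and neutrophils were the only one of these classes apart from its neighbour beyond counting error (osteoblasts over neutrophils 2.20, 1.63 to 2.93). The 35 osteoclasts had more, 174 CPM (144 to 208). Among the named classes Bak1 was highest in monocytes at 60.7 CPM (54.7 to 67.3). This was above granulocyte-monocyte progenitors at 44.3 CPM (39.7 to 49.2) by 1.37-fold (1.18 to 1.59). The unnamed cluster of 79 cells had 152 CPM (65.6 to 299), on 8 UMIs. Bax shares its strand and place with the predicted gene Gm45808, and Bcl2a1b with Gm29094, so reads there could have been split or dropped.

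Set against all other kept cells, a gene was called higher or lower at a ratio of at least 2-fold with at least 20 UMIs over both sides. In monocytes 5 of 10 members were called higher (Mcl1, Bcl2a1a, Bcl2a1d, Bax and Pmaip1), where 11.1% of 13611 genes were, and Bcl2l1 lower (24.6% of genes). In T or NK cells 4 were higher (Bcl2, Bcl2a1b, Bcl2a1d and Bcl2l11; 14.1% of genes) and 2 lower (Bcl2l1 and Bcl2a1a; 21.9%). In macrophages the 3 A1 copies and Pmaip1 were higher (18.1% of genes) and Bcl2 lower (17.3%). In erythroid cells Bcl2l1 alone was higher (12.4% of genes) and 7 members were lower, all but Bax and Bak1 of the rest (34.8%). In neutrophils no member was higher (7.85% of genes) and 4 were lower (57.1%; median log2 ratio of all genes -1.23), and in B lineage cells none was higher (26.9%) and 4 were lower (22.4%), so in neither class did the members exceed the background in the higher direction. These comparisons rest on 1 pooled library, have no test and share cells with each other.

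Within the T or NK class the cluster with Cd3e (209 cells) and the one with Ncr1 and no Cd3e (95 cells) could be set side by side. Bcl2 had 509 CPM (465 to 557) in the Cd3e cluster and 327 CPM (278 to 382) in the Ncr1 cluster, a ratio of 1.56 (1.30 to 1.87). The A1 sum went the same way, 210.1 CPM against 98.1 CPM (ratio 2.14, 1.56 to 3.00). Bcl2l11 went the other way, 476 CPM in the Cd3e cluster against 662 CPM in the Ncr1 cluster (0.719, 0.622 to 0.831). Bcl2l1 did not differ beyond counting error (1.29, 0.542 to 3.37).

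Late neutrophils had a larger share of Mcl1, Bcl2l1, Bcl2l11, Pmaip1 and Bcl2a1a among their transcripts than early ones, and a smaller share of Bcl2; in UMIs per cell only Pmaip1 was at least 2-fold higher. The 2830 neutrophil-like cells were ordered by the UMIs of late genes (Cxcr2, Il1b, Csf3r, Msrb1, Ccl6, Stfa2l1) over those of granule genes (Camp, Ngp, Ltf, Chil3, Fcnb, Cebpe) and split into 4 equal bins, early to late. Bins are ranges of a score, not cell types: 610 cells lay within 0.5 log2 units of the first boundary, 171 of the second and 168 of the third. In bin 4 against bin 1, 5 of 10 members were called higher, where 26.0% of 9197 genes were, and 1 lower, where 21.3% were. The median log2 ratio over all genes was 0.10.

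**Figure D2:**
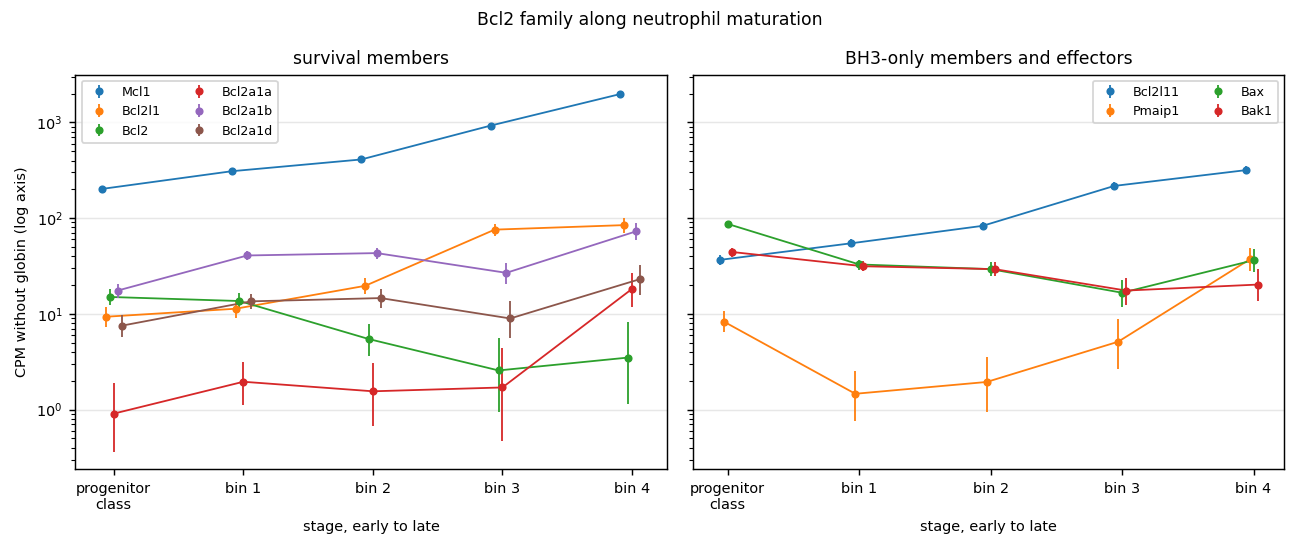
Members in granulocyte-monocyte progenitor-like cells and in the 4 bins of neutrophil-like cells, early to late on the horizontal axis (CPM without globin, log axis); points are summed UMIs and bars exact Poisson 95% intervals. Mcl1 climbs to 1980.5 CPM in bin 4, Bcl2l1 and Bcl2l11 step up between bins 2 and 3, and Pmaip1 and Bcl2a1a between bins 3 and 4.

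Mcl1 had 309, 410.1, 927 and 1980.5 CPM in bins 1 to 4, after 202 CPM in granulocyte-monocyte progenitors, and each step up exceeded counting error. Bin 4 was 6.41-fold (6.07 to 6.76) above bin 1. Bcl2l1 had 11.3, 19.6, 75.8 and 84.5 CPM: its step fell between bins 2 and 3 (3.86-fold, 3.01 to 4.98), and bins 3 and 4 did not differ beyond counting error (1.11, 0.877 to 1.41). Bcl2 had 13.6, 5.44, 2.56 and 3.49 CPM and fell to 0.256 of bin 1 (0.0815 to 0.615), on 5 UMIs in bin 4 against 112 in bin 1; with predicted doublets kept this log2 ratio was 0.10. The A1 sum had 56.2, 59.2, 37.5 and 114 CPM, dipping before its highest value. Among the copies Bcl2a1a rose 9.31-fold (4.81 to 18.6) in bin 4 over bin 1, with 26 UMIs against 16, while Bcl2a1b (1.78, 1.42 to 2.23) and Bcl2a1d (1.70, 1.12 to 2.53) stayed within 2-fold.

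Killers of the BH3-only group also rose in CPM. Bcl2l11 had 54.6, 83.1, 217 and 317 CPM in bins 1 to 4, a 5.81-fold rise (5.09 to 6.63). Pmaip1 had 1.46, 1.94, 5.11 and 37.0 CPM, a 25.3-fold rise (13.4 to 52.0) on 53 UMIs in bin 4 against 12 in bin 1. Granulocyte-monocyte progenitors had 8.29 CPM, and bin 1 stood at 0.176 of that (0.0867 to 0.330). Bins 1 and 2 did not differ beyond counting error (bin 2 over bin 1 1.33, 0.514 to 3.36). Bax had 32.8, 29.3, 16.6 and 36.3 CPM, with bin 4 at 1.11 of bin 1, within counting error, after 86.9 CPM in granulocyte-monocyte progenitors (bin 1 at 0.377 of that, 0.326 to 0.435). Bak1 had 31.4, 29.3, 17.5 and 20.2 CPM, with bin 4 at 0.644 of bin 1 (0.423 to 0.948).

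The shares and the UMIs per cell moved differently, since median depth was 10852, 6113, 3215 and 1825 UMIs in bins 1 to 4. By UMIs per cell, a scale added after seeing the data, bin 4 against bin 1 had 1 member at least 2-fold higher (Pmaip1; 3.59% of genes) and 5 lower (83.0% of genes; median log2 ratio of all genes -2.42). Per cell, Mcl1 averaged 3.58, 2.98, 3.08 and 4.01 UMIs and Bcl2l11 0.633, 0.605, 0.720 and 0.642 UMIs, so for both the UMIs per cell moved little while the share rose. Bcl2l1 averaged 0.131, 0.143, 0.252 and 0.171 UMIs per cell, and Pmaip1 0.0169, 0.0141, 0.0170 and 0.0750. The 5 that were lower per cell in bin 4 were Bcl2 (0.00707 UMIs against 0.158 in bin 1), Bcl2a1b (0.147 against 0.472), Bcl2a1d (0.0467 against 0.157), Bax (0.0736 against 0.380) and Bak1 (0.0410 against 0.364). For Bcl2a1b and Bcl2a1d the direction thus differed between CPM and UMIs per cell. After thinning each cell to 1000 UMIs, a Mcl1 UMI was found in 25.3%, 34.5%, 58.1% and 82.9% of cells, and a Bcl2l11 UMI in 6.78%, 7.23%, 16.1% and 25.5%.

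Genes that respond to tissue dissociation moved with the same order. Summed over 16 such genes the level was 1597, 1945, 4054 and 8787 CPM in bins 1 to 4, and in bin 4 against bin 1, 12 of 15 tested were called higher and none lower, with a median log2 ratio of 2.89 beside 0.10 for all genes; Dusp1, a phosphatase of MAP kinases, had 1568 CPM in bin 4 against 17.2 CPM in bin 1. Mcl1 is itself an early response gene, and the part of dissociation in these member values was not tested. Cluster 4 of the neutrophils (late genes 12678 CPM, dissociation genes 9182 CPM) and cluster 6 (late genes 5613 CPM, dissociation genes 4421 CPM) give 2 late stages that differ in both. Cluster 4 had Mcl1 at 2086 CPM against 1055 CPM in cluster 6 (1.98, 1.86 to 2.10) and Pmaip1 at 41.4 CPM against 5.60 CPM (7.39, 3.72 to 16.3). Bcl2l1 had 89.6 CPM in both (1.00, 0.781 to 1.28), and Bcl2l11 328 CPM against 252 CPM (1.30, 1.14 to 1.49).

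Other pathway genes were read from fixed lists in the same comparison, bin 4 against bin 1, in CPM. Fewer were above bin 1 in UMIs per cell: 1 of the 4 higher in CPM among further Bcl2 family genes, none of 5 apoptosome and caspase genes, 4 of 10 NF-kB targets, 3 of 6 p53 response genes, 2 of 5 EPO and STAT5 genes, none of 2 Mcl1 turnover genes and 8 of 12 dissociation genes. Of 9 tested of 15 further Bcl2 family genes, 4 were higher and 1 lower (median log2 ratio 0.26): the mitophagy gene Bnip3 had 31.4 CPM against 3.17 CPM, the BH3-only genes Bid 51.0 against 9.87 and Bmf 10.5 against 2.07, and the survival gene Bcl2l2 had no UMI in bin 4 (3 UMIs would be 2.09 CPM) against 4.14 CPM. Of 18 tested apoptosome and caspase genes 5 were higher and 5 lower (median -0.12). The inhibitors of apoptosis Birc3 (4.19-fold, 3.39 to 5.17) and Birc2 (2.91-fold) were among those higher in CPM, though with 158 UMIs against 216 and 110 UMIs against 217 in about equal numbers of cells (707 and 708); the mitotic gene Birc5 (0.0760) and the initiator Casp8 (0.287) were among those lower. Of 14 NF-kB targets 10 were higher and none lower (median 2.07), led by the chemokine Cxcl2 (1198 CPM against 1.22 CPM) and Ccrl2 (55.7-fold), with the adaptor Traf1 at 21 UMIs against 3. Of 13 p53 response genes 6 were higher and none lower (median 0.51), with the death receptor Fas at 83.8 CPM against 5.12 CPM, Sesn2 at 105 against 12.7 and Trp53inp1 at 163 against 23.5. Among 7 EPO and STAT5 genes 5 were higher and 1 lower (median 1.84): Socs3 37.3-fold, Pim1 29.7-fold and Stat5a 5.47-fold, with the transferrin receptor Tfrc at 0.348. Of 7 genes that act on Mcl1 protein turnover 2 were higher and none lower (median 0.64), the kinase Gsk3b 4.13-fold and Trib1 2.63-fold (543 UMIs against 754, and 908 against 1980).

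In the middle of the B lineage, from small pre-B to immature cells, Bcl2l1 and Bcl2 moved in opposite directions, and the A1 genes appeared with Ms4a1 and Ighd. The series was read by gates on single stage genes and by the 5 B lineage clusters. The gates gave 434 pro-B or large pre-B cells (Vpreb1, Vpreb2 or Igll1), 747 small pre-B cells (Rag1 or Il2ra), 369 immature cells (Ms4a1) and 1665 cells with Ighd or Fcer2a, with 211 left unstaged. The Ighd or Fcer2a gate was leaky: 799 of its cells passed on 1 UMI, 366 also had a surrogate light chain UMI, and its Mki67 and Igll1 levels were 828 and 178 CPM, where mature B cells should have little of either. The small pre-B gate also held dividing cells, with Mki67 at 704 CPM against 38.8 CPM in the cluster highest in Rag1 and Il2ra. The clusters, chosen as a second reading after the gate values were seen, separated the stages more sharply.

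**Figure D3:**
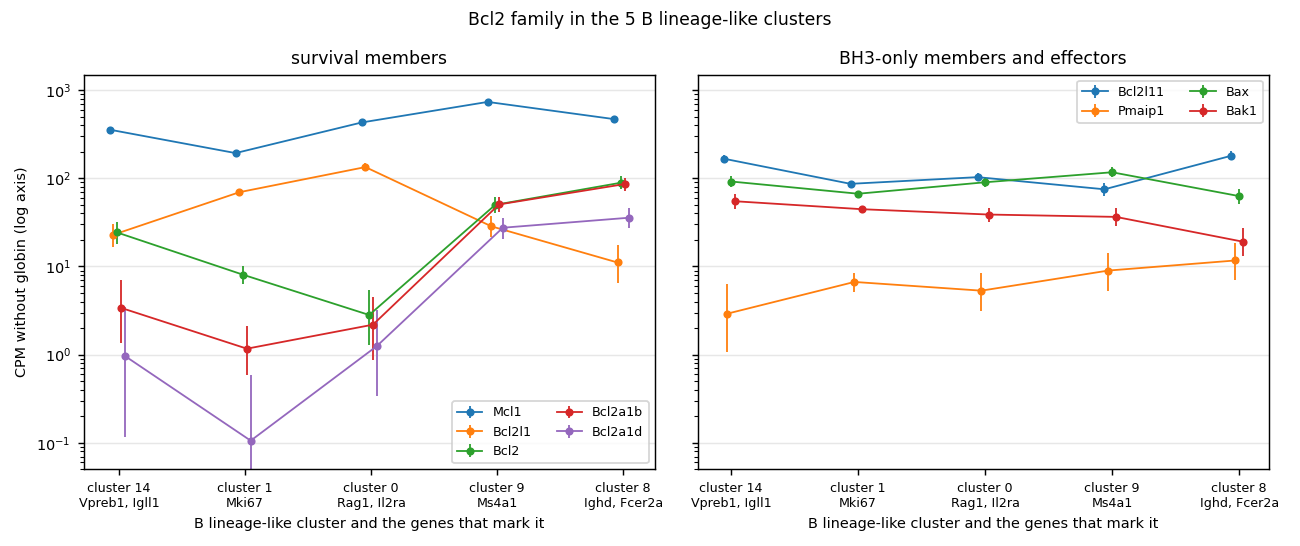
Members in the 5 B lineage-like clusters, placed from pro-B to mature by the genes printed under each (CPM without globin, log axis cut at 0.05); points are summed UMIs and bars exact Poisson 95% intervals, and Bcl2a1a, with 4 UMIs in the class, is not drawn. Bcl2l1 peaks in cluster 0 (134 CPM), where Bcl2 is lowest (2.82 CPM), and both A1 copies jump between clusters 0 and 9.

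By gate, with Ighd or Fcer2a cells against pro-B or large pre-B cells, 3 of 9 tested members were called higher, where 6.10% of 10744 genes were, and none lower, where 2.88% were; the median log2 ratio over all genes was 0.01. With at most 5% mitochondrial UMIs (169 and 53 cells) 1 was called higher. By UMIs per cell 2 were higher, Bcl2a1b and Bcl2a1d (2.08% of genes), and 2 lower, Bax and Bak1 (41.9%; median log2 ratio of all genes -0.91). Bcl2 had 29.1 CPM against 11.1 CPM (2.63-fold, 1.95 to 3.63). Bcl2a1b had 23.4 CPM against 1.52 CPM (15.4-fold, 7.34 to 38.7), and Bcl2a1d 10.2 CPM on 95 UMIs against 0.217 CPM on 1 UMI (ratio 46.9, 8.22 to 1872). The other 6 tested stayed within 2-fold in CPM, among them Bcl2l1 (61.4 against 42.3 CPM; 1.45, 1.23 to 1.72, the same direction as Bcl2), Mcl1 (342 against 232 CPM), Bcl2l11 (109 against 104 CPM) and Bax (73.0 against 82.9 CPM). Bcl2a1a, with 4 UMIs against 0, was too sparse to be tested.

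The middle stages held most of the change. Over pro-B or large pre-B, small pre-B, immature and Ighd or Fcer2a gates, Bcl2l1 had 42.3, 138, 24.7 and 61.4 CPM: it was 3.27-fold (2.73 to 3.91) higher in small pre-B than in pro-B or large pre-B cells, and immature cells had 0.179 (0.117 to 0.264) of the small pre-B level. Bcl2 ran 11.1, 5.62, 30.9 and 29.1 CPM, with immature cells 5.50-fold (2.89 to 11.1) above small pre-B cells. From the immature to the Ighd or Fcer2a gate Bcl2l1 was 2.48-fold higher (1.70 to 3.77) while Bcl2 did not differ beyond counting error (0.942, 0.661 to 1.38). Mcl1 ran 232, 329.7, 724 and 342 CPM, highest in the immature gate. The A1 sum ran 1.74, 1.20, 44.2 and 34.0 CPM.

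The clusters differed from the gates at the last stage, where Bcl2l1 was lowest. In the order cluster 14 (surrogate light chain genes 3677 CPM), 1 (Mki67 1305 CPM), 0 (Rag1 and Il2ra 1082 CPM), 9 (Ms4a1 1731 CPM) and 8 (Ighd and Fcer2a 1425 CPM), Bcl2l1 had 22.9, 69.5, 134, 28.5 and 11.1 CPM. Bcl2 had 24.3, 8.06 and 2.82 CPM in clusters 14, 1 and 0 and 89.2 CPM in cluster 8, with cluster 9 between the last 2, so the cluster with the most Bcl2l1 had the least Bcl2. Cluster 8 had 31.7-fold (16.2 to 70.7) more Bcl2 than cluster 0, and 0.0825 (0.0484 to 0.132) of its Bcl2l1. The A1 sum had 4.38, 1.27, 3.76, 78.9 and 122 CPM, 32.6-fold (18.3 to 64.2) higher in cluster 8 than in cluster 0. Mcl1 had 356, 193, 429, 734 and 469 CPM, lowest in the dividing cluster 1. Bcl2l11 was high at both ends, at 167 CPM in cluster 14 and 180.3 CPM in cluster 8, with 86.5 CPM in cluster 1 and 103 CPM in cluster 0, and Bak1 declined through 54.9, 44.6, 38.8, 36.5 and 19.1 CPM. Clusters 9 and 8 also had the most dissociation genes (5571 and 4776 CPM, against 2641 to 3199 CPM in the other B clusters) and Egr1 (1610.0 and 619.6 CPM), whose part in the Mcl1 and A1 values was not tested.

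Of the lists, with Ighd or Fcer2a cells against pro-B or large pre-B cells, NF-kB targets had 7 of 13 tested higher and none lower (median log2 ratio 1.21): Cd83 had 176 CPM against 3.69 CPM, Traf1 9.43 against 1.95, and Relb, a subunit of NF-kB itself, 66.0 against 24.3. The dissociation list had 7 of 16 higher and none lower (median 0.91), with Egr1 at 317 CPM against 16.5 CPM, Fos at 25.1 against 7.59 and Junb at 382 against 118. The rest moved little. Of 10 further Bcl2 family genes only Bok, an effector-like member, was called (lower, ratio 0.340, 0.224 to 0.512; list median -0.06). Birc3 (146 against 55.5 CPM) was the one called among 19 apoptosome and caspase genes (median -0.11), Gadd45a (40.7 against 18.9 CPM) among 13 p53 response genes (median 0.34), and Socs3 (40 UMIs against 3; ratio 6.58, 2.10 to 33.3) among 8 EPO and STAT5 genes (median 0.11). None of 7 Mcl1 turnover genes was called (median -0.02).

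In erythroid cells Bcl2l1 rose with globin, while most other transcripts shrank. The 1909 erythroid-like cells were split by the share of a cell's UMIs from globin genes into under 20% (360 cells), 20% to 75% (745) and over 75% (804); 58 cells lay within 5 points of the first limit and 205 of the second. Bcl2l1 had 19.8 CPM (14.8 to 25.9), 549.8 CPM (522 to 578) and 3022 CPM (2895 to 3154) in that order. Cells over 75% globin had 153-fold (116 to 205) the level of cells under 20%. Because globin is left out of the denominator, CPM measures a share of a shrinking remainder. A smaller rise was present without it, most of it between the first 2 ranges: cells averaged 0.144, 2.00 and 2.62 Bcl2l1 UMIs each, and 18.8, 263 and 401 per 1000000 of all UMIs. A Bcl2l1 UMI was found in 9.72%, 62.1% and 84.2% of cells (median depth 1996, 6997 and 6202 UMIs), and after thinning to 1000 UMIs in 2.43%, 23.6% and 34.0%; in T or NK cells, with few Bcl2l1 transcripts, the share was 7.24% (median depth 4056 UMIs) and 2.33% when thinned.

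**Figure D4:**
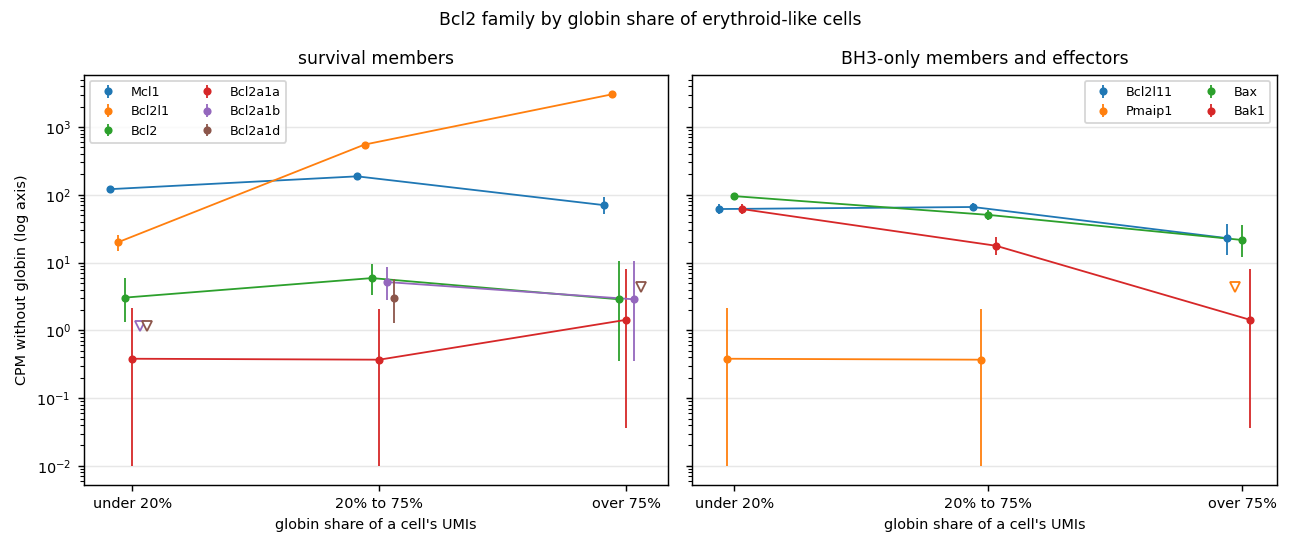
Members in erythroid-like cells under 20%, from 20% to 75% and over 75% globin (CPM without globin, log axis); points are summed UMIs, bars exact Poisson 95% intervals, and open triangles mark ranges with no UMI, drawn at the level of 3 UMIs. Bcl2l1 climbs from range to range to 3022 CPM while Bax and Bak1 decline.

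Only 5 members had the UMIs to be tested between cells over 75% and under 20% globin. Bcl2l1 was called higher, where 8.53% of 8164 genes were. Bcl2l11, Bax and Bak1, 3 of 5, were called lower, where 70.2% of genes were, and the median log2 ratio over all genes was -1.91. Bcl2l11 (log2 ratio -1.39) and Bax (-2.11) lay near that median, and Bak1 (-4.85) below it. Bak1 had 61.6, 17.7 and 1.43 CPM from the lowest to the highest globin range, with 1 UMI in cells over 75% against 162 in cells under 20% (ratio 0.0233, 0.000585 to 0.131). Bax had 95.5, 50.5 and 21.5 CPM (0.225, 0.124 to 0.379). Bcl2l11 had 61.6, 66.0 and 22.9 CPM (0.372, 0.208 to 0.623), level within counting error up to the middle range (1.07, 0.861 to 1.33). Mcl1 had 121, 187 and 70.3 CPM and stayed within 2-fold on this scale (0.581, 0.421 to 0.786), but per cell it averaged 0.883, 0.682 and 0.0609 UMIs. By UMIs per cell Bcl2l1 was higher (1.16% of genes were) and the other 4 were lower (95.6%; median log2 ratio of all genes -4.99). Bcl2, Pmaip1 and the A1 copies had 16 UMIs or fewer in any of the 3 ranges.

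A single erythroid cluster (number 20, 122 cells, 111 of them in the middle range) also had B lineage transcripts, with Cd79a at 1051 CPM, close to the 1157 CPM of B lineage cells. It was left out as a check. Without it Bcl2 in erythroid cells was 1.67 CPM (0.762 to 3.16) and Bcl2l1 634 CPM (613 to 655). By globin range Bcl2l1 was then 13.9, 586 and 3075 CPM, and Bak1 60.3 CPM, 13.6 CPM and no UMI. The counts of members called did not change.

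The lists are read in CPM, and of the genes called higher only Bnip3l, Pim1 and Gadd45a, each among those named below, also had more UMIs per cell. Of the further Bcl2 family genes, cells over 75% against under 20% globin had 1 of 7 higher and 5 lower (median log2 ratio -2.02). The one higher was Bnip3l (Nix), which removes mitochondria from maturing reticulocytes, at 8602 CPM against 207 CPM (41.6-fold, 38.1 to 45.5); Bad (1.43 against 26.6 CPM), Bcl2l12 (1.43 against 22.5 CPM) and Bid (7.17 against 32.0 CPM) fell. Of 18 apoptosome and caspase genes none was higher and 15 were lower (median -2.68), with no UMI of Casp6 or Dffa against 23.6 and 14.1 CPM (3 UMIs would be 4.30 CPM). Of 8 EPO and STAT5 genes only the kinase Pim1 was higher (749.8 against 75.3 CPM, 9.95-fold) and 4 were lower, among them Gata1 (14.3 against 135 CPM), Stat5a (5.73 against 38.4 CPM) and Stat5b (7.17 against 39.6 CPM; list median -1.31).

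The p53 response list had 3 of 10 higher and 6 lower (median -1.21): the growth-arrest gene Gadd45a had 1709 CPM against 78.0 CPM (21.9-fold, 18.9 to 25.5), Trp53inp1 91.8 against 35.0 and Sesn1 38.7 against 15.6, the last 2 with fewer UMIs per cell (64 and 27 UMIs in 804 cells against 92 and 41 in 360), while Trp53 (17.2 against 181 CPM), Ccng1 (7.17 against 46.0 CPM) and Aen (5.73 against 29.7 CPM) fell. Of 7 Mcl1 turnover genes the ubiquitin ligase March5 was higher in CPM (586 against 169), with 409 UMIs in 804 cells against 445 in 360, and 4 fell, including Gsk3b (18.6 against 83.3 CPM), Usp9x (54.5 against 152 CPM) and Fbxw7 (10.0 against 28.2 CPM; list median -1.22). NF-kB targets had 2 of 11 higher and 4 lower (median -0.71), with Cd83 at 28.7 CPM against 5.33 CPM, Ccrl2 at 43.0 against 17.9, Nfkb1 at 25.8 against 97.4, Nfkbia at 130.5 against 399 and Relb at 17.2 against 52.1. The dissociation list had 3 of 16 higher and 7 lower (median -0.13), with Fosb, Jund and Zfp36 higher (20.1, 896 and 43.0 CPM against 3.04, 379 and 21.3 CPM) and the heat shock genes Hsp90aa1 (185 against 2075 CPM) and Hspa1b (2.87 against 24.4 CPM) lower, beside Hspa1a with no UMI against 7.99 CPM.

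The number of Bcl2l1 UMIs per Mcl1 UMI shows how far the mix of survival transcripts moved between groups; since the genes differ in length and capture, only the change between groups is read. It was 0.164 (0.120 to 0.220), 2.94 (2.65 to 3.25) and 43.0 (32.4 to 58.3) over the 3 globin ranges. Within the B gates it was 0.182, 0.419, 0.0342 and 0.180 from pro-B or large pre-B to Ighd or Fcer2a cells. The last of these gates was leaky, and the clusters differed from the gates. Clusters 14, 1, 0, 9 and 8 had 47, 656, 429, 57 and 18 Bcl2l1 UMIs. Beside these they had 732, 1825, 1371, 1468 and 762 Mcl1 UMIs. In the clusters the last stage thus showed no rise over cluster 9. In neutrophils it stayed low, at 0.0366, 0.0478, 0.0818 and 0.0427 over the bins, where both genes gained share. Monocytes had 0.0164 (0.0133 to 0.0201).

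**Figure D5:**
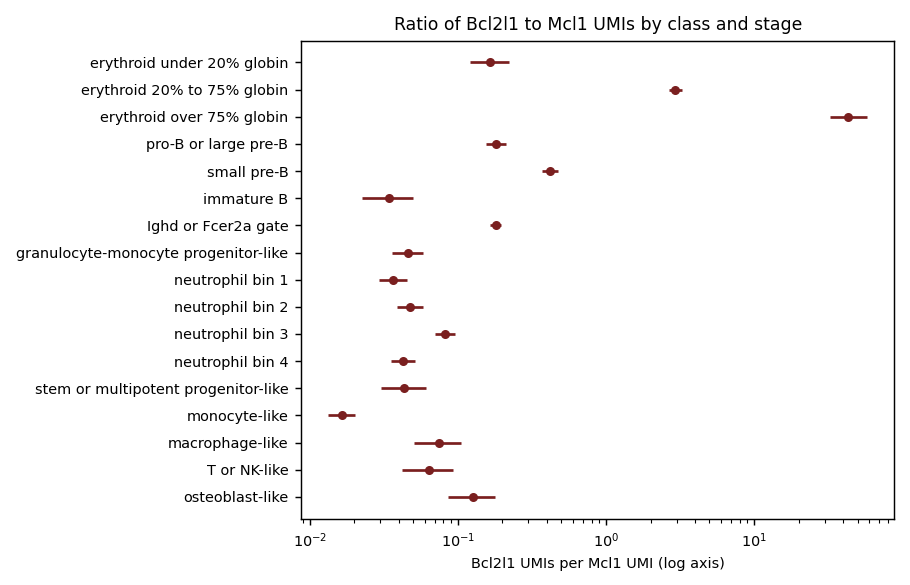
Bcl2l1 UMIs per Mcl1 UMI (log axis) in stages of the erythroid, B and neutrophil series, each early to late down the page, and in 5 other classes; bars are exact conditional 95% intervals. The ratio spans 0.0164 in monocytes to 43.0 in erythroid cells over 75% globin. B stages are the gates, of which the Ighd or Fcer2a gate was leaky.

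Over the 22 classes and stages, the genes whose log2(CPM + 1) followed a member most closely were listed from 8608 genes with at least 500 UMIs. Classes contain their own stages and all come from 1 library, so the points are not independent, and Pearson's r is a description over 22 points. Bcl2 was closest to Coro2a (r = 0.850), Elovl5 (0.849) and the TNF receptor family gene Cd27 (0.845). For Bcl2l1 the closest were the autophagy gene Becn1 (0.934), Klhl25 (0.928) and Zfand6 (0.927). Mcl1 was closest to Arap1 (0.955), Tbc1d23 (0.943) and Rassf3 (0.925), Bcl2l11 to Bend4 (0.926), Smad3 (0.892) and Zfp36l2 (0.887), and the A1 sum to Gpr65 (0.857), Nod1 (0.845) and Id2 (0.837).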

How the data were processed

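Single-cell RNA from 4 records of 1 group was measured by droplet sequencing (10x Genomics, per the labels' protocols). The authors deposited 1 pooled matrix of whole-number UMI counts per gene and barcode, which the file headers credit to Cell Ranger 3.1.0. Seurat 3 and build mm10 appear in the submitters' processing notes. Nothing ties a cell to a record or says whether the records are separate animals. From these counts, cells were filtered, doublets (522, Scrublet in scanpy 1.11.5) removed, and 10485 cells clustered (Leiden 0.10.2, resolution 1.0, 2000 variable genes, members left out). A cluster was named from raised marker genes; that stage genes and globins count as markers, and the minimum sizes, were set after clusters were seen. Levels are summed UMIs per 1000000 outside globin, with exact Poisson, conditional binomial and Clopper-Pearson intervals (scipy 1.17.1). Named genes were all members and, per list, up to 3 highest and 3 lowest past 2-fold, plus the 3 genes most like a member. Members and lists were chosen with earlier results of these data known. The contrast calculation was run on simulated Poisson counts with planted changes. Those counts held no variation between cells, so the run checks the calculation and not the results. Depth per barcode ran from 500 to 80413 UMIs. Other resolutions, filters, scalings and stage rules were tried. Promoters are RefSeq's for GRCm38.p6, matched by symbol for 9 members. Some genes of the lists are not reported here.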

Additional observations from a re-analysis of the deposited data

How the results depend on the processing

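Leaving out records was not possible, since the 4 records share 1 matrix. No paired analysis was possible because the cells carry no record number and there is 1 group. Of the counts of members over the alternatives, 79 stayed within 1.5 times the main count and 8 moved. With at most 5% mitochondrial UMIs the B series had 1 member higher in place of 3. With doublets kept the neutrophil series had 0 lower in place of 1, and the Bcl2 log2 ratio reversed to 0.10; outside the 50 most abundant genes it had 2 lower. Cells of 20% to 75% against under 20% globin gave 1 lower in place of 3, with the Bcl2l11 log2 ratio at 0.10. Whole clusters in place of B gates, chosen after seeing the data, gave 2 lower in place of 0 (Bcl2l1 and Bak1). UMIs per cell in place of CPM, also added, gave the neutrophil series 1 higher in place of 5 and 5 lower in place of 1, and the B series 2 lower in place of 0. The causes were not tested. Among the log2 ratios 239 stayed within counting error, 75 moved and 2 reversed. The class highest for a member was the same for 7 to 10 of 10 members over the alternatives: Bcl2, Bcl2l1, Mcl1, Bcl2a1a, Bcl2a1b and Bak1 kept theirs in all of them. Members under 20 UMIs in a contrast limit what the depth can show.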
